A study of Rattus norvegicus with 6 samples.

Results

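The thrombospondins are a family of secreted, calcium-binding glycoproteins of the extracellular matrix. The listed genes were Thbs1, Thbs2, Thbs3, Thbs4 and Comp, the last of which encodes cartilage oligomeric matrix protein. A gene was included if the platform annotation of the array named it as the only gene of a probe set, which is a group of short probes that reports the level of a transcript. By this rule 2 of the 5 genes, Thbs4 and Thbs2, were found, each with 1 probe set, among 18166 genes named in this way on 28879 probe sets. Thbs1, Thbs3 and Comp were not analysed here. The family was chosen by the strain difference of Thbs4, which passed the comparison of SHR with WKY, so the strain differences of its members are given as a description, with no test.

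RNA of the thoracic aorta was measured in SHR, the spontaneously hypertensive rat, which becomes hypertensive with age, and in WKY, the normotensive Wistar-Kyoto rat that serves as its control strain, with 3 Affymetrix Rat Gene 2.0 ST arrays per strain. Rats of both strains were 24 weeks old and had no treatment apart from the measurement of tail blood pressure. The vessels were cleaned of fat and connective tissue before freezing and were used whole, so each array holds RNA of all cell types of the wall. Adipocyte markers were still measured, at levels that differed between arrays, as given below. The labels do not say that each array held another animal, so the spread behind each p-value is that between samples and may be technical.

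Thrombospondins bind collagens, growth factors, proteases and cell-surface receptors, and they change how cells attach to and sense the matrix. Thrombospondin-1 and thrombospondin-2 form trimers, carry type 1 repeats that bind the receptor CD36, and inhibit the growth of blood vessels. Thrombospondin-3, thrombospondin-4 and cartilage oligomeric matrix protein form pentamers and lack those repeats. Thrombospondin-4 is abundant in tendon and is also made in heart and vessel walls, and in mouse heart it has been shown to act inside the cell with the stress sensor Atf6 of the endoplasmic reticulum.

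SHR replicate 1 and WKY replicate 3 stood apart from the others. SHR replicate 1 carried markers of sympathetic neurons, with a mean log2 level of 6.06 over Th, Dbh, Stmn2 and Nefl, against 1.86 and 1.84 on the other SHR arrays and 1.69 to 2.11 on the WKY arrays. The values of WKY replicate 3 were the least spread out (SD 2.12 across all probe sets, where the other arrays had 2.22 to 2.27). Several results that rest on these arrays are given without them as well, though not every one. Smooth muscle markers lay at a mean log2 level of 10.09 to 10.44 in SHR and 10.28 to 10.44 in WKY, and endothelial and adventitial fibroblast markers were above every array median.

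Thbs4 lay at a log2 level of 5.89, 5.33 and 5.40 on the 3 SHR arrays, in the order of their replicate numbers as in all such lists of values, against 3.63, 3.61 and 3.36 on the 3 WKY arrays. All 3 SHR arrays were above all 3 WKY arrays, with a gap of 1.70 between the lowest SHR and the highest WKY value. The SHR arrays spanned 0.55 and the WKY arrays 0.27, so the gap was wider than the range within either strain. The mean level was 5.54 ± 0.30 in SHR and 3.53 ± 0.15 in WKY (SD, n = 3 each). The difference was 2.01 ± 0.19 on the log2 scale (SE of the limma fit), or 4.02-fold between measured levels. In bulk tissue, more cells that make a transcript and more of it per cell cannot be told apart. The table has no detection call, but all 3 WKY levels were above the array medians, which ran from 2.29 to 2.52.

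Thbs2 lay at a log2 level of 7.24, 7.48 and 7.62 on the SHR arrays, against 7.13, 7.28 and 6.79 on the WKY arrays. The strains overlapped, since SHR replicate 1 was below WKY replicate 2. The mean level was 7.45 ± 0.19 in SHR and 7.06 ± 0.25 in WKY (SD, n = 3 each), a difference of 0.38 ± 0.19 on the log2 scale (SE). Without WKY replicate 3, its lowest array, the difference of Thbs2 was 0.24. Of the 2 measured members, 1 passed limma at an adjusted p under 0.05 and the same 1 had strains that did not overlap. That member is Thbs4, whose pass led to the choice of the family, so this count follows from the choice and tests nothing. Over all 21659 tested probe sets 0.0693% passed and 12.1% had strains that did not overlap.

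**Figure D1:**
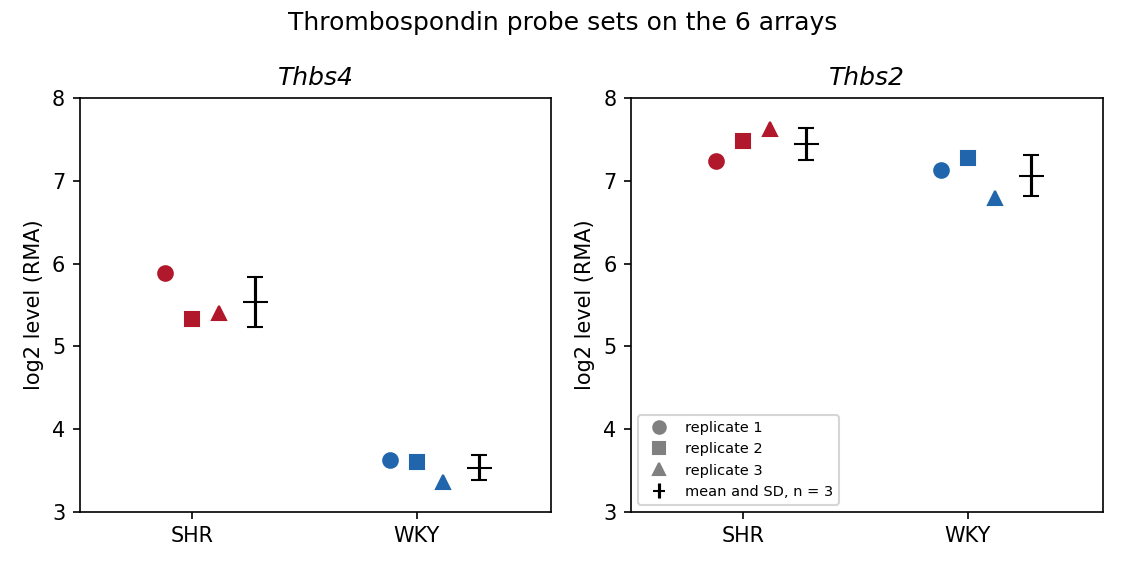
Log2 level (RMA) of the probe sets of Thbs4 and Thbs2 on 3 SHR arrays (red) and 3 WKY arrays (blue), with the mean and SD of each strain in black. For Thbs4 the SHR arrays lie between 5.33 and 5.89 and the WKY arrays between 3.36 and 3.63, whereas for Thbs2 the strains overlap.

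Among all tested probe sets, 0.0970% had a larger absolute difference than Thbs4 and 13.9% a larger one than Thbs2. Thbs4 ranked eighth by p among the 15 probe sets that passed, and this is the value that led to the choice of the family. Neither probe set had a copy with identical values elsewhere in the table. Each gene rests on a single probe set, and strain variants in the probed sequence were not tested.

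On SHR replicate 1, Thbs4 was 0.35 above its strain mean and Thbs2 was 0.21 below its own. On SHR replicate 3 the order was turned, with Thbs4 at -0.14 and Thbs2 at 0.18 from their strain means. On WKY replicate 3 both were low, at -0.17 for Thbs4 and -0.28 for Thbs2. Pearson's r between the deviations of the 2 genes over the 6 arrays was -0.15, which is a description of these arrays.

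The size of the Thbs4 difference moved little when single arrays were left out. Without SHR replicate 1, its highest array and the one with neuronal markers, it was 1.83 on the log2 scale, and over the 6 fits that each left out 1 array it ran from 1.83 to 2.11. With fewer arrays Thbs4 passed limma at an adjusted p under 0.05 in none of these 6 fits. When SHR replicate 1 and WKY replicate 3 were both left out, an alternative added after the data were seen, it was 1.75 and passed. Thbs2 ran from 0.24 to 0.49 over the 6 fits. With the mean of white adipocyte markers as a covariate, also chosen after seeing the data, Thbs4 was at 2.11 and Thbs2 at 0.32.

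**Figure D2:**
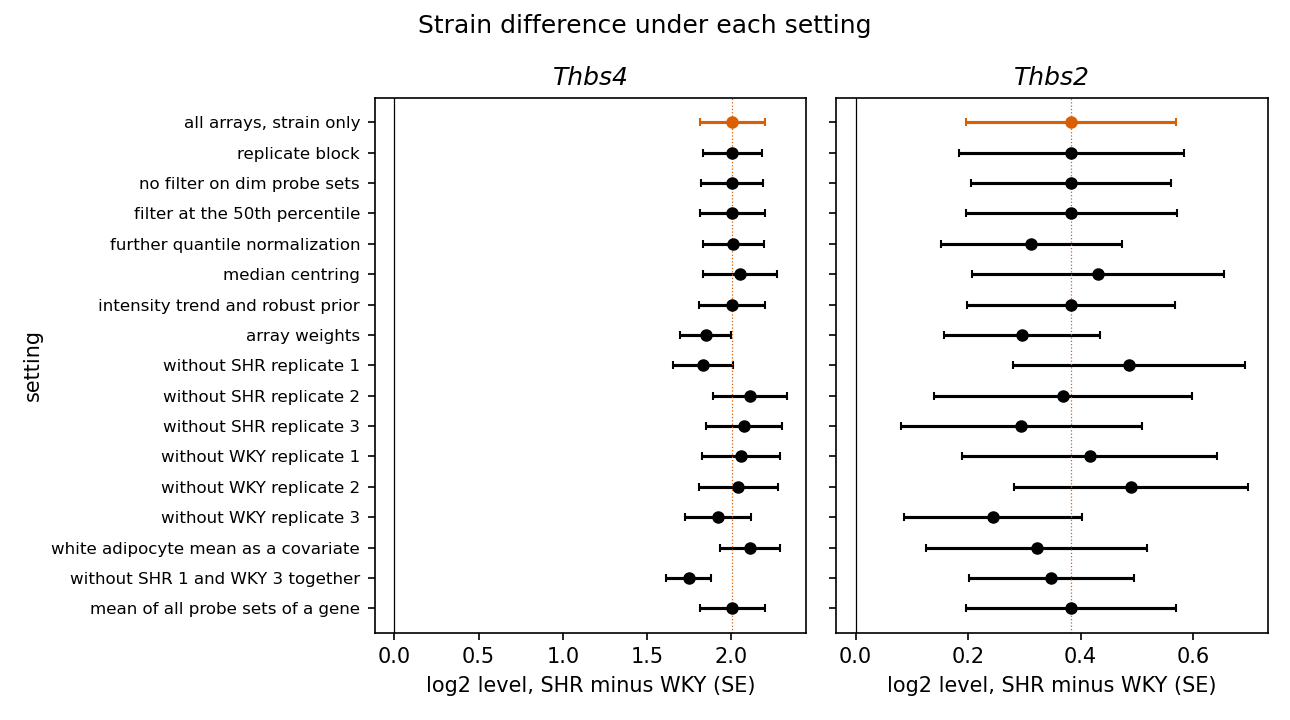
Difference SHR minus WKY in log2 level (points, with the SE of the fit) for Thbs4 and Thbs2 under each setting listed down the side; the orange point uses all arrays with the strain as the only term. Thbs4 stays between 1.75 and 2.11 and Thbs2 between 0.24 and 0.49.

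The promoter reference used here had an entry for Thbs4 and none for Thbs2, so the sequence before the annotated start of Thbs4 is shown. It covers 250 bases upstream of the start in the RefSeq table of the rat reference assembly GRCr8, at chr2:25760346-25760595 on the minus strand. It is the reference strain's sequence and not that of SHR or WKY. Capitals mark the GC boxes (GGGCGG), the E-box (CANNTG) and the SMAD element (CAGAC), each searched on both strands.
Thbs4 upstream: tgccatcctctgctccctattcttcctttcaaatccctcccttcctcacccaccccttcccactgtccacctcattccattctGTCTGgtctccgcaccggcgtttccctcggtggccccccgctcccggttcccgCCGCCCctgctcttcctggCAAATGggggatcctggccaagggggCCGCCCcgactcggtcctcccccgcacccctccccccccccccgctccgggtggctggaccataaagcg
The window had 67.6% G and C, against a median of 51.2% over 33465 such windows. It held 2 GC boxes, 1 E-box and 1 SMAD element, which do not overlap each other. A GC box was present in 30.5% of all windows, an E-box in 65.5% and a SMAD element in 42.9%. No match was found to TATAAA (12.9% of windows), CCAAT (34.0%), the AP-1 site TGANTCA (6.34%) or the CArG box bound by serum response factor (1.50%). The promoter of Thbs2 was not available and is not shown.

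Cell types known to make thrombospondin-4 or to accompany the aorta were followed through their markers. Skeletal muscle markers ran the other way from Thbs4. Their mean log2 level was 3.66 to 3.74 on the SHR arrays and 3.88 to 4.55 on the WKY arrays. Of the 8 listed markers 4 were measured, and all 4 were lower in SHR without overlap. Over all tested genes 5.72% were lower and 7.41% higher in SHR without overlap. The list of tendon and cartilage markers lay at 3.37 to 3.62 in SHR and 3.12 to 3.48 in WKY. Of its 8 markers, 3 were higher in SHR without overlap (Chad, Acan and Scx) and 5 overlapped. The 3 above the median on every array were Chad, Scx and Fmod, whereas Acan was below it on each. Scx, the transcription factor of tendon cells, was at 4.58, 5.25 and 5.09 on the SHR arrays, against 4.42, 4.21 and 4.43 on the WKY arrays, and did not pass limma. Tnmd, which encodes the tendon protein tenomodulin, was at 1.04 to 1.31 in SHR and 1.02 to 1.38 in WKY, below every array median. Scx, Fmod and Tnmd lie outside the naming rule and were chosen after their values were seen. Platelet markers, relevant because platelets store thrombospondin-1, lay at 2.46 to 2.73 in SHR and 2.54 to 2.91 in WKY.

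Within SHR, replicate 1 was highest for Thbs4 and also for several other cell types. Endothelial markers were at 6.80, 5.21 and 4.43 on the SHR arrays, in replicate order, and at 6.54, 5.96 and 5.64 on the WKY arrays. Macrophage markers were at 5.55, 3.99 and 3.15 on the SHR arrays and at 4.98, 3.99 and 4.28 on the WKY arrays. White adipocyte markers were at 7.68, 5.99 and 4.44 in SHR and at 7.48, 6.36 and 6.34 in WKY. Brown adipocyte markers were at 4.96, 4.52 and 3.14 in SHR and at 5.69, 4.24 and 4.59 in WKY. On each of these lists the strains overlapped. The part of these cell types in the level of Thbs4 was not tested beyond the fits given above.

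**Figure D3:**
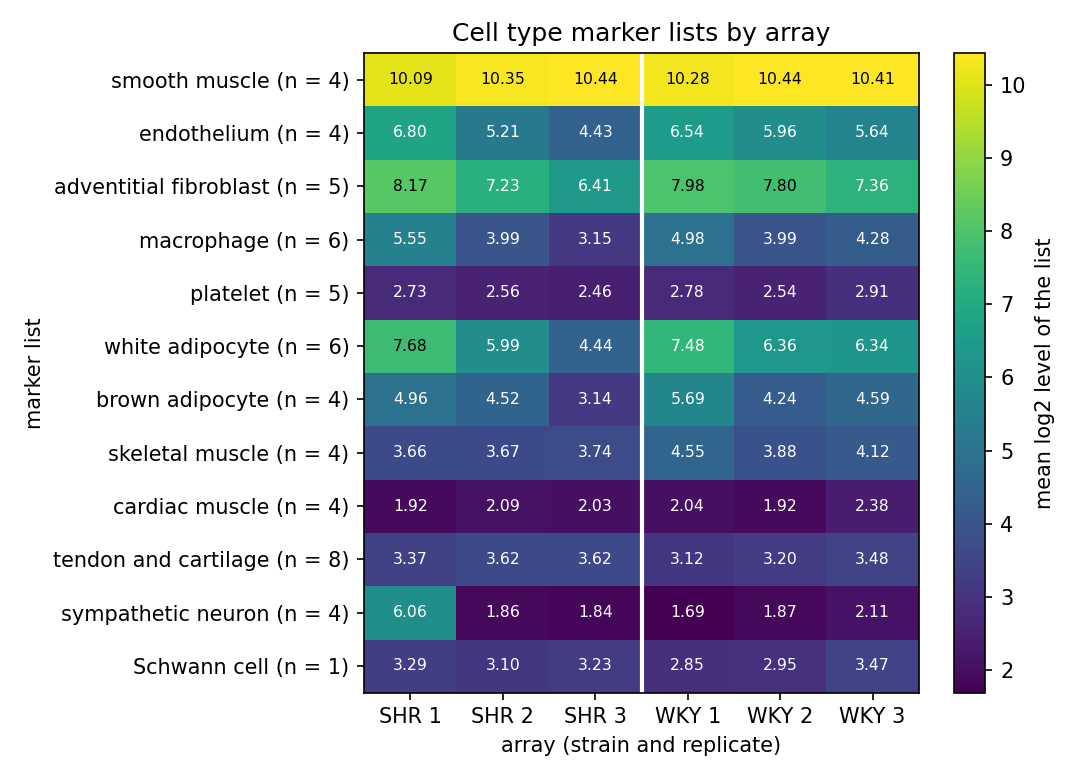
Mean log2 level of each cell type marker list (rows, with the number of its genes in the table) on the 3 SHR and 3 WKY arrays (columns); brighter colours are higher levels. Sympathetic neuron markers stand at 6.06 on SHR replicate 1 and at or below 2.11 on the other 5 arrays.

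Genes around the family were described from 8 lists of receptors, binding partners and linked pathways. Of 152 distinct genes, 139 had a probe set and 138 were tested. None passed limma at an adjusted p under 0.05. Of the 15281 tested genes 0.0851% did, a share that would leave none or few among 138 genes. In limma with array weights 65 of the 21659 tested probe sets passed, against 15 without weights. Of the list genes 3 passed with weights (Itga3, Postn and Prg4), Prg4 at an adjusted p of 0.0499. The share over all tested genes was not computed for that fit. At an unadjusted p under 0.05 in the fit without weights there were 19 higher and 4 lower in SHR. Over all tested genes 3.3% were higher and 2.57% lower at this level. The strains did not overlap for 30 genes higher and 7 lower in SHR, against 7.41% and 5.72% of all tested genes. These shares also belong beside the counts of each list below with all arrays. The genes of a list share the 6 arrays and are not separate observations. The median difference of the 138 genes was 0.08 on the log2 scale and that of all tested genes 0.01.

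Receptors and cell-surface partners had 17 tested genes, of which 16 were above 0, with a median difference of 0.19. The strains did not overlap for 5 of them, all higher in SHR, and 4 had an unadjusted p under 0.05. Itga3 encodes an integrin chain that binds thrombospondin-1. Its level was 5.32, 5.50 and 5.63 on the SHR arrays and 4.60, 4.55 and 4.57 on the WKY arrays. The difference was 0.91 ± 0.14 (SE), with a limma adjusted p of 0.160, and passed with array weights. Itga5, the fibronectin receptor chain, differed by 0.57 ± 0.14, Lrp8, a receptor of the low-density lipoprotein family, by 0.71 ± 0.18, and the heparan sulphate carrier Sdc4 by 0.45 ± 0.16, and none of these passed. Cd47, the receptor for the carboxy-terminal part of thrombospondin-1, overlapped between strains, at 7.31 ± 0.33 in SHR and 7.17 ± 0.51 in WKY (SD, n = 3 each). The difference of Cd47 turned to -0.15 without WKY replicate 3 and to -0.03 without SHR replicate 1.

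The list of receptors depended on single arrays. Its median was 0.15 with 12 of 17 genes above 0 without SHR replicate 1, and 0.13 with 11 above 0 without WKY replicate 3. It was 0.34 without SHR replicate 3 and 0.32 without WKY replicate 2. Without both SHR replicate 1 and WKY replicate 3 it was 0.08, with 9 of 17 above 0. The mean level of the list was 6.42, 6.20 and 6.06 on the SHR arrays and 6.08, 6.01 and 5.74 on the WKY arrays.

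Matrix partners had a median difference of -0.01 over 21 tested genes, with 3 higher and 1 lower in SHR without overlap. Without WKY replicate 3 the median was 0.07, with 5 higher and 3 lower without overlap. With SHR replicate 1 left out as well it was 0.04, with 8 higher and 5 lower. Strains separate more easily on fewer arrays, and the share over all tested genes was not computed for these fits. Postn, the matricellular protein periostin, lay at 9.97, 10.23 and 10.29 on the SHR arrays and at 8.94, 9.07 and 8.10 on the WKY arrays. The difference was 1.46 ± 0.27 (SE; limma adjusted p = 0.261), and it passed with array weights. Without WKY replicate 3 the difference of Postn was 1.16. Fn1, the gene of fibronectin, lay at 10.88 ± 0.17 in SHR and 9.96 ± 0.38 in WKY (SD, n = 3 each). It differed by 0.92, and by 0.70 without WKY replicate 3. Acan, the cartilage proteoglycan aggrecan, differed by 0.61 ± 0.13 but was below every array median, at 1.79 to 1.95 in SHR and 1.24 to 1.31 in WKY. Eln, the gene of elastin, differed by -0.27 ± 0.16, and by -0.16 without SHR replicate 1.

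The list of tendon and cartilage genes includes the 8 markers of those tissues given above, and it shares genes such as Acan with the matrix partners. Its median was -0.01 over 17 tested genes, and 5 of them were higher in SHR without overlap. Chad, Acan and Scx, already counted among the markers, are among these 5. Prg4, the lubricating proteoglycan of joints, lay at 5.56, 5.08 and 4.59 on the SHR arrays and 3.72, 3.50 and 3.27 on the WKY arrays. The difference was 1.58 ± 0.26 (SE; limma adjusted p = 0.199). It passed with array weights and with the adipocyte covariate. Chad, a leucine-rich protein of cartilage that binds cells, lay at 4.79, 5.61 and 5.43 in SHR and 3.37, 4.41 and 4.06 in WKY, and Cilp, a cartilage matrix protein that binds TGF-beta, differed by 0.91 ± 0.21. Without WKY replicate 3 the median of the list was 0.13 and 13 of 17 genes were above 0. Without both SHR replicate 1 and WKY replicate 3 it was 0.20 and 15 were above 0.

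Thrombospondin-1 can release TGF-beta from its latent complex. Of 16 tested genes of TGF-beta activation and response, 5 were higher in SHR without overlap and 0 lower. The median difference was 0.03, and it was -0.01 without WKY replicate 3 and 0.15 without WKY replicate 1. Without SHR replicate 1 there were 8 higher and 3 lower without overlap. Without both SHR replicate 1 and WKY replicate 3 there were 9 higher and 5 lower. Strains separate more easily on fewer arrays, and the share over all tested genes was not computed for these fits. Tgfb1, the ligand, lay at 6.65, 6.99 and 7.10 on the SHR arrays and at 6.26, 6.18 and 6.07 on the WKY arrays (difference 0.74 ± 0.17, SE; limma adjusted p = 0.436). Its receptor gene Tgfbr1 averaged 7.25 ± 0.19 in SHR and 6.36 ± 0.50 in WKY, and the latent binding protein gene Ltbp2 at 8.79 ± 0.51 in SHR and 7.99 ± 0.04 in WKY (SD, n = 3 each). Tgfbr1 differed by 0.90, and by 0.61 without WKY replicate 3. Ltbp2 differed by 0.80, and by 1.09 without SHR replicate 1. Lrrc32, which holds latent TGF-beta on the cell surface, differed by -0.35 ± 0.20, and by -0.23 without SHR replicate 2.

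Genes of endoplasmic reticulum stress had a median difference of 0.29 over 21 tested genes, with 18 above 0. The strains did not overlap for 10 of them, each higher in SHR, where 7.41% of all tested genes were higher without overlap. Hspa5, the main chaperone of the reticulum, lay at 9.96, 9.68 and 9.65 on the SHR arrays and 9.44, 9.39 and 9.25 on the WKY arrays (difference 0.41 ± 0.15, SE; limma adjusted p = 0.862). Manf, a secreted stress-response protein, differed by 0.40 ± 0.15, the cochaperone Dnajb11 by 0.34 ± 0.14 and the disulphide isomerase Pdia4 by 0.36 ± 0.16. Without WKY replicate 3 Pdia4 differed by 0.24. The sensor gene Atf6 overlapped between strains, with a difference of 0.12. It lies outside the naming rule and was chosen after its value was seen. The mean level of the list was 6.76, 6.65 and 6.57 on the SHR arrays and 6.52, 6.51 and 6.26 on the WKY arrays. Without SHR replicate 1 the median was 0.18, with 17 genes above 0 and 10 higher without overlap, and without WKY replicate 3 it was 0.21. Without both it was 0.18, with 15 genes above 0, and 11 higher and 2 lower without overlap. Strains separate more easily on fewer arrays. The share of 7.41% belongs to all arrays, and none was computed for the fits on fewer arrays.

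**Figure D4:**
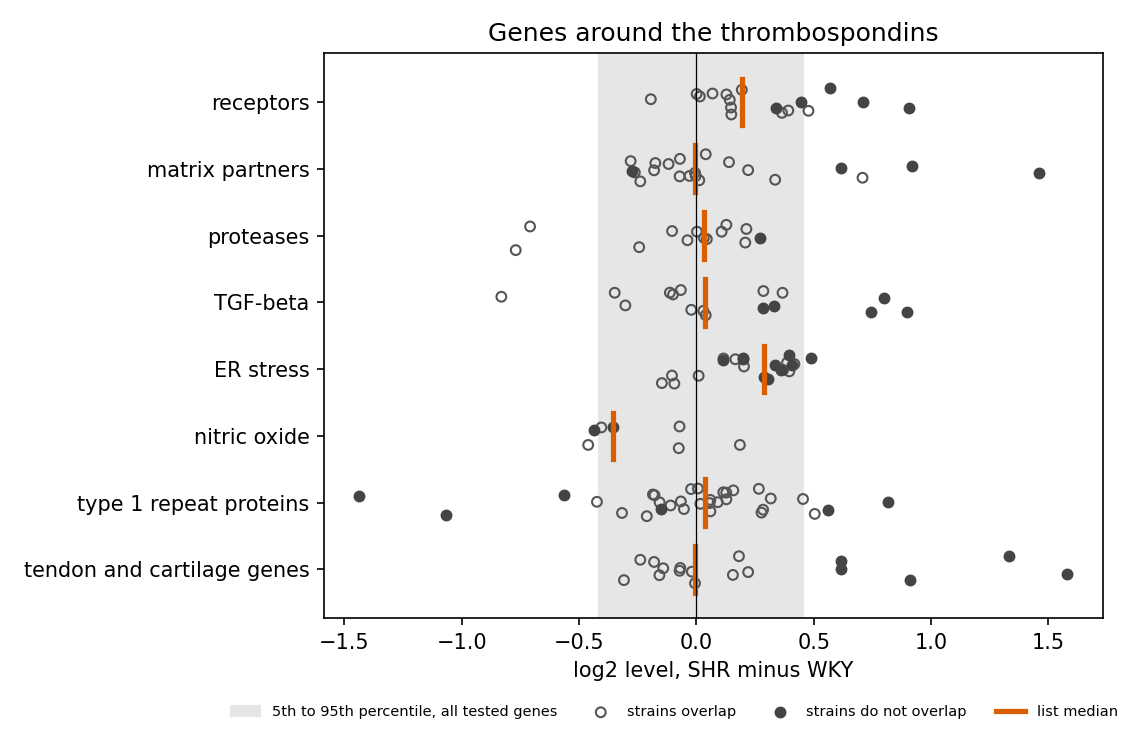
Difference SHR minus WKY in log2 level for each tested gene (points) of the 8 lists, filled where the strains do not overlap; orange bars are list medians and the grey band spans the 5th to 95th percentile of all tested genes, from -0.41 to 0.46. The largest differences are those of Prg4 (1.58) and Postn (1.46) on the higher side and Ccn1 (-1.44) on the lower.

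Thrombospondin-1 also opposes nitric oxide signalling through Cd47. Of 7 tested genes of that pathway, 1 was above 0, and the median difference was -0.35. It was -0.17 without SHR replicate 3 and -0.18 without WKY replicate 1. Gucy1a1, a subunit of the nitric oxide receptor guanylate cyclase, lay at 7.34, 7.28 and 7.58 on the SHR arrays and 7.81, 7.96 and 7.74 on the WKY arrays (difference -0.43 ± 0.15, SE; limma adjusted p = 0.818). Pde5a, which degrades cyclic GMP, differed by -0.35 ± 0.17, and by -0.22 without SHR replicate 1. The second cyclase subunit gene Gucy1b1 differed by -0.40, by -0.21 without WKY replicate 2 and by -0.62 without WKY replicate 3. Nos3, the endothelial synthase, was at 4.24 ± 0.71 in SHR and 4.70 ± 0.49 in WKY (SD, n = 3 each), with endothelial markers moving beside it as given above. The difference of Nos3 was -0.46, and it was -0.17 without SHR replicate 3, -0.18 without WKY replicate 1 and -0.86 without SHR replicate 1.

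Other proteins with type 1 repeats, the module that Thbs2 carries and Thbs4 lacks, had a median difference of 0.04 over 32 tested genes, with 2 higher and 4 lower in SHR without overlap. Over the fits without 1 array the median ran from -0.0058 (without SHR replicate 2) to 0.041 (without WKY replicate 3), and with both SHR replicate 1 and WKY replicate 3 left out it was -0.016, so its sign is not settled. Ccn1, a matricellular protein and immediate early gene, lay at 7.01, 7.57 and 8.58 on the SHR arrays and 8.91, 9.53 and 9.02 on the WKY arrays (difference -1.44 ± 0.39, SE; limma adjusted p = 0.577). The netrin receptor gene Unc5b differed by 0.82 ± 0.16 on its brightest probe set and by 0.36 ± 0.15 on the mean of its probe sets. Adamtsl4, a microfibril-associated protein, differed by -0.57 ± 0.14 and Spon1, the matrix protein F-spondin, by -1.07 ± 0.36 (-0.63 without SHR replicate 3). Among 13 tested proteases, most of which act on matrix, 1 was separated between strains. The median was 0.03, and it turned to -0.02 without SHR replicate 1 and to -0.05 without WKY replicate 2. The separated gene was Mmp2, a gelatinase, with a difference of 0.27, and of 0.13 without WKY replicate 3. Adamts1, which cleaves thrombospondin-1 and thrombospondin-2, lay at 6.76, 6.62 and 6.94 in SHR and 6.72, 7.70 and 8.21 in WKY. Its difference was -0.77 ± 0.35 (SE), -1.18 without WKY replicate 1 and -0.44 without WKY replicate 3. Plau, the urokinase gene, differed by -0.71 (-0.41 without WKY replicate 3, -0.44 without SHR replicate 2) and Mmp14, a membrane metalloproteinase, by 0.21 (0.11 without WKY replicate 3, 0.33 without WKY replicate 1).

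The nearest genes with a tested probe set, in the RefSeq gene order of GRCr8, were described for both members. Beside Thbs4 on chromosome 2, Serinc5 differed by 0.43 (0.24 without SHR replicate 1), Zfyve16 by 0.37 (0.22 without WKY replicate 3), Tent2 by 0.40 (0.15 without WKY replicate 3) and Bhmt by 0.04. None passed limma, and 10.9% of all tested probe sets had a larger absolute difference than Serinc5. Of these 4 genes, Tent2 was the one with strains that did not overlap.

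Beside Thbs2 on chromosome 1, Smoc2, a calcium-binding matricellular protein related to Sparc, lay at 5.63, 6.79 and 6.36 on the SHR arrays and 4.79, 4.51 and 3.73 on the WKY arrays. Its difference was 1.91 ± 0.36 (SE; limma adjusted p = 0.291), and 0.120% of tested probe sets had a larger absolute one. Dact2, a modulator of Wnt and TGF-beta signalling, ran the other way, at 3.89, 3.22 and 3.44 in SHR and 4.73, 4.21 and 4.44 in WKY (difference -0.94 ± 0.22, SE; limma adjusted p = 0.463). On the other side of Thbs2, Wdr27 differed by 0.17 (0.09 without SHR replicate 2, 0.11 without WKY replicate 1 and 0.26 without SHR replicate 1) and C1h6orf120 by -0.11, and both overlapped between strains.

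Patterns most like those of the members were sought among 15039 tested genes by Pearson's r over the 6 arrays, as a description of arrays that share strain and RNA sample. For Thbs4 the highest were Slc38a1 (a glutamine transporter), Vsnl1 (a neuronal calcium sensor), Olr1 (a scavenger receptor), Galnt10 (which starts O-linked glycosylation) and Ptpa (an activator of protein phosphatase), with r between 0.989 and 0.994. The 6 arrays fall into 2 strain clusters for Thbs4, so these values follow the strain difference. In this search 189 genes had r above 0.9 with Thbs4, so the named ones are among many. Slc38a1 lay at 3.73, 3.26 and 3.30 on the SHR arrays and at 2.17, 2.14 and 2.16 on the WKY arrays, and so matched the higher value on SHR replicate 1 as well.

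With deviations from the strain means, the genes most like Thbs4 were Gimap5, Pde2a, Hnrnpm, Hspa4l and Plekhb1, and 516 genes had r above 0.9, so these 5 are among many. Their own strain differences ran from -0.51 (Gimap5) to 0.35 (Plekhb1). Pde2a, a cyclic nucleotide phosphodiesterase, was at 5.66, 3.71 and 3.91 on the SHR arrays, with the same high first array as the endothelial and neuronal markers, and at 4.95, 4.62 and 3.77 on the WKY arrays.

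For Thbs2 the genes most alike over the 6 arrays were Sec31a, Snrnp27, Plod2, Mtfr1 and Kirrel1, among 429 genes with r above 0.9. Plod2, the lysyl hydroxylase that modifies collagen, lay at 8.93, 9.22 and 9.42 on the SHR arrays and 8.78, 9.02 and 8.19 on the WKY arrays. Sec31a, a coat protein of vesicles that leave the endoplasmic reticulum, had r = 0.998 and a strain difference of 0.23. Within strains the highest were Plekho1, Mtfr1, Nradd, Sec31a and Tbc1d1, and 575 genes had r above 0.9. Of these, Mtfr1 and Sec31a were on both lists, and on both WKY replicate 3 was the lowest array, as it was for Thbs2.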

How the data were processed

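Values in the deposited table are on the log2 scale, 1 per probe set and array. The authors used RMA and Affymetrix Expression Console 1.2.1, according to the submitters' processing notes. RMA subtracts background, equalizes the distributions of the arrays and combines the probes of a set. The summarization level and genome build are not stated in the labels. Arrays have no sequencing depth, so precision depends on how many there are.

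Of 28879 probe sets, 18511 have 1 gene symbol in the platform annotation, and 18394 were matched by Entrez identifier to RefSeq (GRCr8) for current symbols. The 21659 probe sets with a mean at or above the 25th percentile (log2 level 1.17) were tested, and both members were among them. The strain was the only term of the limma fit (version 3.58.1, lmFit and eBayes, under R 4.3.3), with two-sided tests and Benjamini-Hochberg adjustment over all tested probe sets. Differences are SHR minus WKY. A gene with several probe sets was represented by the brightest.

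The members, lists and marker genes were chosen with earlier results of these data known. Named genes are both members, Cd47, the 4 tested genes with the smallest p of each list, the nearest 2 tested genes on each side of a member, and the 5 genes most alike by each measure. Cd36 and the neighbours of Thbs1, Thbs3 and Comp are not described. Alternatives were a replicate block, other filters and normalizations, array weights, a prior with trend and robust estimation, dropping each array in turn, the mean of a gene's probe sets and, chosen after seeing the data, an adipocyte covariate and leaving out 2 arrays.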

Additional observations from a re-analysis of the deposited data

How the results depend on the processing

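The differences of Thbs4 and Thbs2 kept their direction under each setting run. Over 6 fits without 1 array Thbs4 ran from 1.83 to 2.11 and Thbs2 from 0.24 to 0.49, and Thbs4 was 1.75 without SHR replicate 1 and WKY replicate 3 together. The count of passing probe sets, 15 with all arrays, was 65 with array weights, 115 without those 2 arrays together and 2 to 5 without 1 array, where Thbs4 passed in none of the 6 fits. At an unadjusted p under 0.05 it was 1202, and 23 list genes were past that level. Of the genes in the 8 lists, 0 passed with all arrays and in each fit without 1 array. With array weights 3 passed (Itga3, Postn and Prg4), with the adipocyte covariate 1 (Prg4) and without both arrays 3 (Ltbp2, Postn and Tgfbi), as did the neighbour Smoc2. The cause was not tested.

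With the replicate number as a block 3 probe sets passed, and Thbs4 was not among them, at the same difference of 2.01. The labels do not say whether the numbers pair the arrays. Same-numbered deviations correlated at 0.35, -0.08 and 0.23, which cannot decide it.

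The direction turned for 3 genes with small differences. Cd47 ran from -0.15 to 0.32 and C1h6orf120 from -0.22 to 0.090 over the fits without 1 array, Bhmt from -0.059 to 0.18. With array weights Cd47 was at -0.14 and C1h6orf120 at 0.11. Without both arrays named above they were at -0.32 and 0.25. Bhmt was at -0.065 with the adipocyte covariate. Dim probe sets have no detection call.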
